A study of Homo sapiens with 6 samples.

Results

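CADM1, FAT1 and CBLN2 are 3 genes for proteins of cell adhesion, out of 14884 genes measured in a human myeloma cell line. They were chosen by name, with the difference between ATRA and DMSO already known, as genes that stood lower with ATRA. The values below for that difference are therefore a description and carry no test. On the array CADM1 had 2 probe sets and FAT1 and CBLN2 had 1 each, and a gene was represented by the probe set with the highest mean over the 6 arrays. All 3 genes had values on all 6 arrays.

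The cells were MM.1S, an established line from multiple myeloma, a cancer of the antibody-secreting plasma cells. Every culture had first received a pulse of Cfz (the usual short name of carfilzomib, a proteasome inhibitor) for 1 h, and RNA was taken after a further 12 h with either 10 µM ATRA (all-trans retinoic acid, a vitamin A derivative that activates nuclear retinoic acid receptors) or the solvent DMSO, on 3 arrays each. Cells that had not seen Cfz were not analysed here, so the comparison speaks only of Cfz-pulsed cells of 1 line. The labels leave unsaid if separate cultures were used for the 3 arrays of each group, and the spread between arrays, on which the p-values rest, may be technical.

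CADM1 is a transmembrane protein of the immunoglobulin superfamily that binds CADM1 or other CADM and nectin proteins on a neighbouring cell and is a ligand of CRTAM, a receptor of activated T and natural killer cells. Its short cytoplasmic tail binds band 4.1 proteins and membrane scaffold proteins. FAT1 is a very large cadherin, related to the Drosophila tumour suppressor Fat, whose cytoplasmic part binds actin regulators of the Ena/VASP family and is linked to the Hippo pathway. CBLN2 is a secreted protein of the cerebellin family, known from the brain, where cerebellins bridge neurexins on one side of a synapse and delta-type glutamate receptors on the other. All 3 are thus contact proteins, but of unrelated protein families.

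The sequences around the gene starts of FAT1 and CBLN2 are shown because these genes were lower together; CADM1 is not shown. RefSeq on GRCh38.p14 gave 2 start regions for FAT1 (chr4:186726647-186726946 and chr4:186723807-186724106) and 1 for CBLN2 (chr18:72544293-72544592), all on the minus strand, each covering 250 bases before and 50 after the start. Capitals mark every match on either strand to GGGCGG, the GC box, or CAGGTG, an E-box.
FAT1 first start: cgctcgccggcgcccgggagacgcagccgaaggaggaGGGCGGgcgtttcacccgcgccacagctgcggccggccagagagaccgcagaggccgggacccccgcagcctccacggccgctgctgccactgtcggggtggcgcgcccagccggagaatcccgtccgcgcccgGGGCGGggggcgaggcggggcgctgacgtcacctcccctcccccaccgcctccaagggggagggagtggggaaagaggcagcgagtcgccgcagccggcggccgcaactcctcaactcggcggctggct
FAT1 second start: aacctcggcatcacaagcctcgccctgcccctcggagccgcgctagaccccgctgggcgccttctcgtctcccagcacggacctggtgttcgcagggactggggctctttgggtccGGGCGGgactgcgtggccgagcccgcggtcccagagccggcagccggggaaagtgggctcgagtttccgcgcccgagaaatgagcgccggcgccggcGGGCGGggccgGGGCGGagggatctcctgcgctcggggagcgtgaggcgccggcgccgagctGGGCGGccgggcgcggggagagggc
CBLN2 start: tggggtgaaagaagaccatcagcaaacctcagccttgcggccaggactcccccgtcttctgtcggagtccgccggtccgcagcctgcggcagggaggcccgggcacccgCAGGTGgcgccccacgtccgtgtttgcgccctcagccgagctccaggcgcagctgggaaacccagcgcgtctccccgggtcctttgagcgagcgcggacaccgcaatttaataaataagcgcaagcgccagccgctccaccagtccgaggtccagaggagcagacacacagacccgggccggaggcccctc
The first FAT1 region held 2 GC boxes and the second held 4, whereas the CBLN2 region held 0, and 45% of 35116 start regions of this length held at least 1. CAGGTG occurred 1 time in the CBLN2 region and in neither FAT1 region, against 20.6% of all start regions. The letters AGGTCA and AGTTCA, half-sites that retinoic acid receptors bind, matched in 0 of these FAT1 and CBLN2 regions (13.8% and 10.4% of all regions held them), and so did TATAAA (11.5%). G and C made up 77.3% and 76% of the FAT1 regions and 67.7% of the CBLN2 region, where the median of all regions was 58.7%. The FAT1 and CBLN2 regions thus shared none of the searched motifs. Each of these motifs was absent from most start regions, so sharing none says little. CAGGTG is 1 form of the E-box, and other forms were not searched.

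The brighter probe set of CADM1 (16731526) read 32.7, 41.2 and 27.5 on the ATRA arrays and 94.9, 102 and 89.8 on the DMSO arrays, in units of linear intensity. No ATRA array reached a DMSO array, and the lowest DMSO value was 2.18 times the highest ATRA value. The means were 33.8 ± 6.94 with ATRA and 95.5 ± 6.04 with DMSO (SD, n = 3 each), so that CADM1 was 2.86-fold lower with ATRA on geometric means, a log2 difference of -1.52. The ATRA arrays spread more widely than the DMSO arrays on the log2 scale (SD 0.29 with ATRA and 0.091 with DMSO), with ATRA replicate 2 the highest of its group.

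The dimmer probe set of CADM1 (16744616) read 16.9, 19.6 and 16.1 with ATRA and 28.8, 31.7 and 27.7 with DMSO. Here too the groups did not overlap, but they lay closer together, the lowest DMSO value being 1.42 times the highest ATRA value. The log2 difference was -0.75, a 1.68-fold lower level with ATRA. Both probe sets thus put CADM1 lower with ATRA and in the same order of arrays within each group, while the size of the difference depended on the probe set.

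The numbers of the probe sets on this array followed the strand of the genes. Of 11549 named probe sets whose gene has a known strand, 95.4% stood in a run of numbers in which most of the 20 nearest named probe sets of the chromosome belonged to genes of that same strand. CADM1 lies on the minus strand of chromosome 11, as is known of the gene. Its dimmer probe set stood among 20 minus-strand genes of 20, and its brighter one among 18 plus-strand genes of 20. FAT1 stood among 19 minus-strand genes of 20 and CBLN2 among 20 of 20; both lie on the minus strand. Other genes had the same arrangement, since 314 had 2 probe sets in runs of opposite strands, and in 94 of them the brighter one stood in the run of the opposite strand. The sources used here do not give the strand that the brighter CADM1 probe set reads, so its larger difference is tied to CADM1 only through the platform annotation.

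FAT1 read 27.8, 37.4 and 27.8 on the ATRA arrays and 80.3, 104 and 101 on the DMSO arrays. The groups did not overlap, with the lowest DMSO value at 2.15 times the highest ATRA value. The means were 31.0 ± 5.54 with ATRA and 95.1 ± 12.8 with DMSO (SD, n = 3 each), a 3.08-fold lower level with ATRA and a log2 difference of -1.62. As for CADM1, ATRA replicate 2 was the highest ATRA array and DMSO replicate 2 the highest DMSO array.

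CBLN2 read 13.2, 10.6 and 10.1 on the ATRA arrays and 42.9, 35.9 and 22.6 on the DMSO arrays. All ATRA arrays were below all DMSO arrays, with the lowest DMSO value at 1.71 times the highest ATRA value. The DMSO arrays were themselves spread over 1.89-fold, a wider range than CADM1 (1.13-fold) or FAT1 (1.29-fold) had in the same arrays, and DMSO replicate 3 was the lowest. The means were 11.3 ± 1.69 with ATRA and 33.8 ± 10.3 with DMSO (SD, n = 3 each), a 2.91-fold lower level and a log2 difference of -1.54. Without DMSO replicate 3 this difference was -1.80, and without DMSO replicate 1 it was -1.34.

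**Figure D1:**
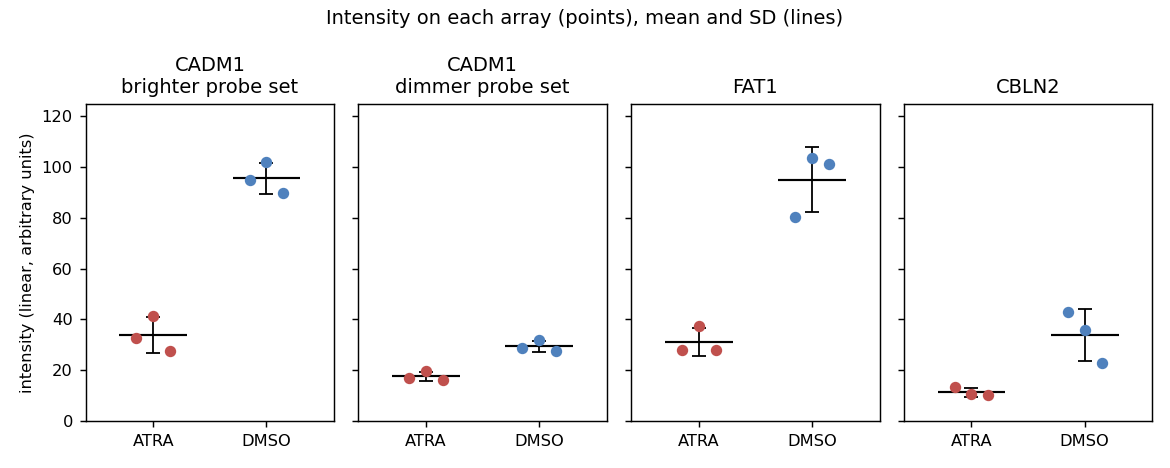
Linear intensity of the 2 CADM1 probe sets, FAT1 and CBLN2 on each array, replicates 1 to 3 from left to right within a group, with ATRA on the left of each panel and DMSO on the right (n = 3 each). The long line is the mean and the bar the SD. In every panel the 3 ATRA points lie below the 3 DMSO points, most closely for the dimmer CADM1 probe set (19.6 with ATRA against 27.7 with DMSO) and CBLN2 (13.2 with ATRA against 22.6 with DMSO).

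For all 3 genes every ATRA array was below every DMSO array, a pattern found in 14.8% of the 14884 genes, and it was part of what led to the choice of the 3. In the order of all genes by log2 difference, from the largest decrease, FAT1, CBLN2 and CADM1 stood next to each other at places 7, 8 and 9. TEC, a tyrosine kinase, came just before them at -1.63, and PCP4, a small calmodulin-binding protein, just after them at -1.44. This order depends on the setting: with 16 added before log2, CBLN2 was at place 41, and with its probe sets averaged CADM1 was at place 22. Place 9 of CADM1 rests on its brighter probe set, whereas its dimmer one had a difference of -0.75. With 1 array left out in turn, the difference ranged from -1.67 to -1.38 for CADM1, from -1.76 to -1.55 for FAT1 and from -1.80 to -1.34 for CBLN2. These ranges overlap, so the order of the 3 among themselves was not larger than the change from 1 array. With less RNA of a gene in bulk cells, fewer cells that express it and less RNA per cell cannot be told apart.

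**Figure D2:**
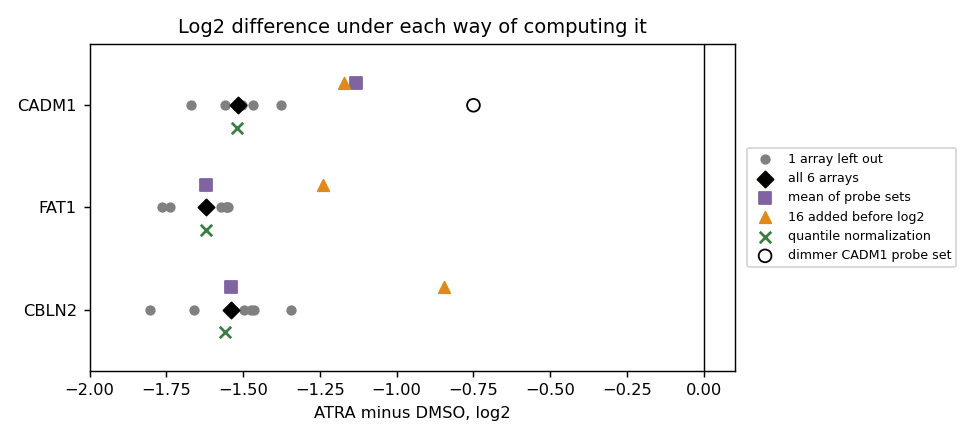
Log2 difference, ATRA minus DMSO, for CADM1, FAT1 and CBLN2 as computed from all 6 arrays (diamonds), with 1 array left out (grey points), after quantile normalization, with a gene's probe sets averaged, and with 16 added to each intensity before log2. The open circle is the dimmer CADM1 probe set (-0.75). All values are below 0, which only quantile normalization could have changed. With 16 added CBLN2 moved the most, to -0.85.

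The brighter CADM1 probe set and FAT1 were above the median of all genes in both groups, and CBLN2 only with DMSO. With ATRA, mean log2 intensity was 5.06 for the brighter CADM1 probe set, 4.94 for FAT1 and 3.49 for CBLN2, against 6.58, 6.56 and 5.03 with DMSO. Among all genes CBLN2 stood at percentile 36.4 with ATRA and at percentile 60.5 with DMSO, while FAT1 stood at 59.9 with ATRA and 76.3 with DMSO. The brighter CADM1 probe set stood at 61.4 with ATRA and 76.4 with DMSO. As a rough guide to the signal of genes that these cells should lack, since probe sets differ in brightness, 28 markers of 8 other cell types had a median of 3.52 with ATRA and 3.53 with DMSO. CBLN2 had 14 of the 28 markers above it with ATRA and 3 with DMSO. Its ATRA level was therefore in the midst of those markers, and the size of its difference is uncertain. The dimmer CADM1 probe set had 8 markers above it with ATRA and 3 with DMSO, and the brighter one and FAT1 had 2 of 28 above them in both groups.

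The 2 markers above FAT1 and CADM1 were TRAT1, a T cell adaptor (9.19 with ATRA, 9.27 with DMSO), and KRT18, a keratin of simple epithelia (7.08 with ATRA, 7.23 with DMSO). Of the 28 markers 0 were called by limma, 1 had an unadjusted p under 0.05 and 0 were called with a trended, robust variance, where 3.8%, 17.9% and 8.92% of all genes met these criteria. Their summed intensity was 1001 to 1134 on the ATRA arrays and 1048 to 1191 on the DMSO arrays. The 4 T cell markers alone, TRAT1 among them, had sums of 569 to 718 with ATRA and 644 to 696 with DMSO. The sums over all 28 therefore say little about the dim markers. Of 10 plasma cell markers 7 were measured, and 6 of these were at a log2 level of 8.29 or more in both groups, the exception being POU2AF1, a B cell transcription coactivator, at 4.25 or less in both groups. Of the 7, 3 rose (CD38, SDC1 and XBP1) and 0 fell in limma's test. The summed intensity of the 7 was 9025 to 9353 on the ATRA arrays and 7137 to 7420 on the DMSO arrays. Among those not called, SLAMF7, IRF4 and POU2AF1 had lower mean log2 levels with ATRA and MZB1 a higher one. The higher sum with ATRA therefore does not hold for each marker. The part of these shifts in the differences of CADM1, FAT1 and CBLN2 was not tested. The line thus showed the markers of its labelled cell type.

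**Figure D3:**
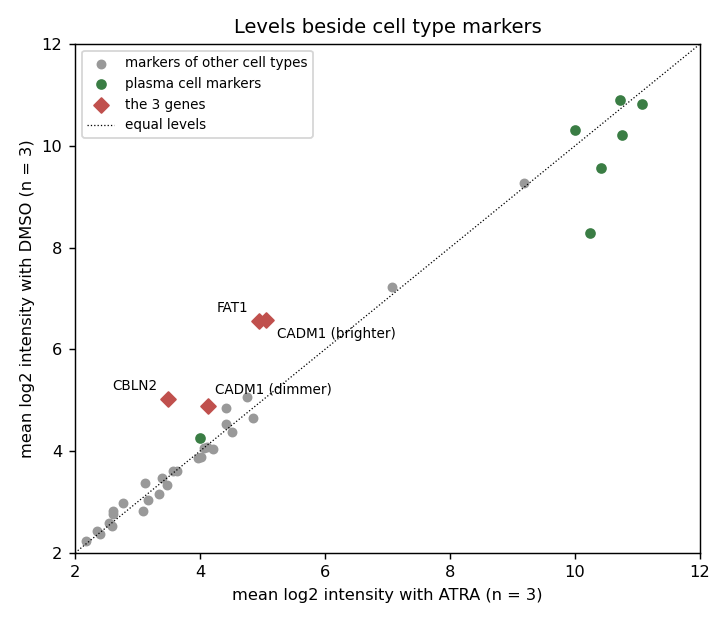
Mean log2 intensity with ATRA (horizontal) against that with DMSO (vertical), n = 3 arrays each, for the 3 genes, 28 markers of other cell types and 7 plasma cell markers. Points above the dotted line are lower with ATRA. FAT1 and the brighter CADM1 probe set lie above all but 2 of the other markers on both axes, whereas CBLN2 lies in their midst on the ATRA axis (3.49).

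The known binding partners and close relatives of the 3 proteins were measured in part, 18 of 23. Of these, 0 passed limma's test over all 14884 genes in either direction, where 3.8% of all genes did. An unadjusted p under 0.05 was found for 4 (17.9% of all genes), and 1 passed with a trended, robust variance (8.92% of all genes), and counts this near the shares of all genes are no result about the partners. Their adjusted p lay between 0.157 and 0.993 (limma, Benjamini-Hochberg). The log2 differences ran from -0.57 to 0.40. For 10 of the 18 the DMSO mean was under 12 (from 4.79 to 11.9), a signal low enough to limit how far a decrease could show.

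Among the relatives of CADM1 (means ± SD, n = 3 arrays each, here and for the other partners), CADM3 was at an intensity of 19.99 ± 3.48 with ATRA and 19.2 ± 0.236 with DMSO, and CADM4 at 14.8 ± 0.769 with ATRA and 16.6 ± 2.55 with DMSO. NECTIN3, an adhesion molecule that CADM1 can bind across cells, was at 26.6 ± 5.99 with ATRA and 31.5 ± 0.717 with DMSO. CRTAM, the receptor of CADM1 on lymphocytes, was at 5.24 ± 0.257 with ATRA and 4.79 ± 0.931 with DMSO, below the median of all probe sets. Inside the cell, the scaffold kinase CASK was at 57.4 ± 8.11 with ATRA and 76.0 ± 12.5 with DMSO (log2 difference -0.40, adjusted p = 0.243 in limma). EPB41L3, the band 4.1 protein that anchors CADM1 to actin, was at 8.92 ± 1.56 with ATRA and 11.3 ± 2.28 with DMSO.

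Of the other FAT cadherins, FAT2, FAT3 and FAT4 had mean intensities from 6.55 to 10.3 with ATRA and from 6.77 to 11.3 with DMSO, near or below the median of all probe sets. DCHS1, the cadherin that pairs with FAT4, was at 15.5 ± 3.27 with ATRA and 11.5 ± 0.629 with DMSO. FJX1, related to the Drosophila kinase that phosphorylates Fat and Dachsous, was at 68.8 ± 17.1 with ATRA and 102 ± 22.6 with DMSO, and its groups overlapped (log2 difference -0.57, adjusted p = 0.255 in limma). VASP, an actin regulator that binds the FAT1 tail, was at 238 ± 25.9 with ATRA and 313 ± 34.5 with DMSO. Its log2 difference of -0.39 did not pass (adjusted p = 0.157), but passed with the trended, robust variance (adjusted p = 0.0243).

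CBLN3, another cerebellin, was at 66.4 ± 7.10 with ATRA and 66.4 ± 6.06 with DMSO. CBLN1 was at 11.2 ± 1.51 with ATRA and 11.9 ± 0.591 with DMSO, and CBLN4 at 7.55 ± 1.91 with ATRA and 6.64 ± 1.06 with DMSO. Among the neurexins, NRXN2 was at 10.6 ± 1.12 with ATRA and 8.78 ± 2.34 with DMSO and NRXN3 at 7.55 ± 0.047 with ATRA and 6.95 ± 0.368 with DMSO. All but CBLN3 were near or below the median of all probe sets, 9.40 to 9.76 per array, which limits how far a decrease could show.

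In 8 wider lists of adhesion genes, which leave out CADM1, FAT1 and CBLN2, 122 of 194 genes were measured. Of these, 1 rose, 3 fell and 118 did not pass (limma over all genes), which is 3.28% called beside 3.8% of all genes (1.73% higher and 2.07% lower). The median log2 difference was -0.07, that of all genes -0.01. The share of listed genes called was near that of all genes in this fit. With a trended, robust variance 3 rose and 15 fell, which is 14.8% called beside 8.92% of all genes, so the relation of the 2 shares depends on the variance model.

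WWC1, a scaffold that activates the LATS kinases of the Hippo pathway, read 47.4, 52.1 and 51.0 on the ATRA arrays and 88.6, 107 and 85.2 on the DMSO arrays. It fell by 0.89 on the log2 scale (adjusted p = 0.00815 in limma), and was the 1 of 21 measured Hippo genes that passed. Its call held with any 1 array left out (adjusted p up to 0.0397). The Hippo list thus had 4.76% called, beside 3.8% of all genes. An unadjusted p under 0.05 in limma was found for 5 of the 21 (23.8%), beside 17.9% of all genes. With the trended, robust variance 2 fell and 1 rose (14.3%), beside 8.92% of all genes. The median of the Hippo list was -0.11.

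Among 30 measured immunoglobulin and leukocyte adhesion molecules, 1 rose and 2 fell, which is 10% called beside 3.8% of all genes. An unadjusted p under 0.05 in limma was found for 7 of the 30 (23.3%), beside 17.9% of all genes. With the trended, robust variance 5 fell and 1 rose (20%), beside 8.92% of all genes. CD58, the ligand of the T cell receptor CD2, fell to 21.3 ± 1.53 with ATRA, against 36.1 ± 3.73 with DMSO (log2 difference -0.76, adjusted p = 0.0139). ALCAM, a binding partner of CD6, fell to 18.9 ± 1.88 with ATRA, against 29.7 ± 3.67 with DMSO (log2 difference -0.65, adjusted p = 0.0377). ICAM1, the ligand of the integrin LFA-1, rose to 359 ± 32.7 with ATRA, against 233 ± 27.2 with DMSO (log2 difference 0.63, adjusted p = 0.0401), the direction opposite to that of CADM1. With 1 array left out, CD58 lost its call without DMSO replicate 1 (adjusted p = 0.0573), DMSO replicate 3 (0.0531) or ATRA replicate 1 (0.0582). ALCAM lost it in all 6 such fits (up to 0.109), and so did ICAM1 (up to 0.123).

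In the other 6 lists 0 genes passed. The numbers with an unadjusted p under 0.05, which 17.9% of all genes had, were 1 of 12 in the CADM and nectin families, 6 of 12 among intracellular and sheddase partners of CADM1, 4 of 13 in the FAT list, 2 of 16 among cadherins and catenins, 1 of 13 among cerebellins and neurexins, and 2 of 5 in the integrin list. The 5 measured genes of that list of 31 were talins and kindlins, which activate integrins. No integrin gene of the list was among the 14884 genes. With the trended, robust variance, which called 8.92% of all genes, 1 rose in the first of these lists, and 4, 1, 1, 0 and 2 fell in the others. The share of the intracellular and sheddase partners of CADM1 was 50% by unadjusted p and 33.3% by the trended variance, over 12 genes. This list and the integrin list were brighter than all genes (median log2 levels 7.93 and 7.58 against 4.19). The part of brightness in their shares was not tested. The largest differences in the first list were those of CD226 (0.87, adjusted p = 0.0915), a receptor of nectin-like proteins, and PVR (-0.38, adjusted p = 0.349), its ligand. TIAM1, an activator of Rac that binds the CADM1 tail, was at a log2 difference of -0.60 (adjusted p = 0.0679) and APH1A, a subunit of gamma-secretase, at -0.42 (adjusted p = 0.0686). In the FAT list the largest after FJX1 was HOMER1, a scaffold protein, at -0.45 (adjusted p = 0.136). The cadherin genes PCDH1 and DSG2 were at -0.49 and -0.38 (adjusted p = 0.387 and 0.103). NLGN3, a neuroligin, was at 0.36 (adjusted p = 0.282), and FERMT3, a kindlin, and TLN1, a talin, were at -0.37 and -0.29 (adjusted p = 0.101 and 0.131).

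**Figure D4:**
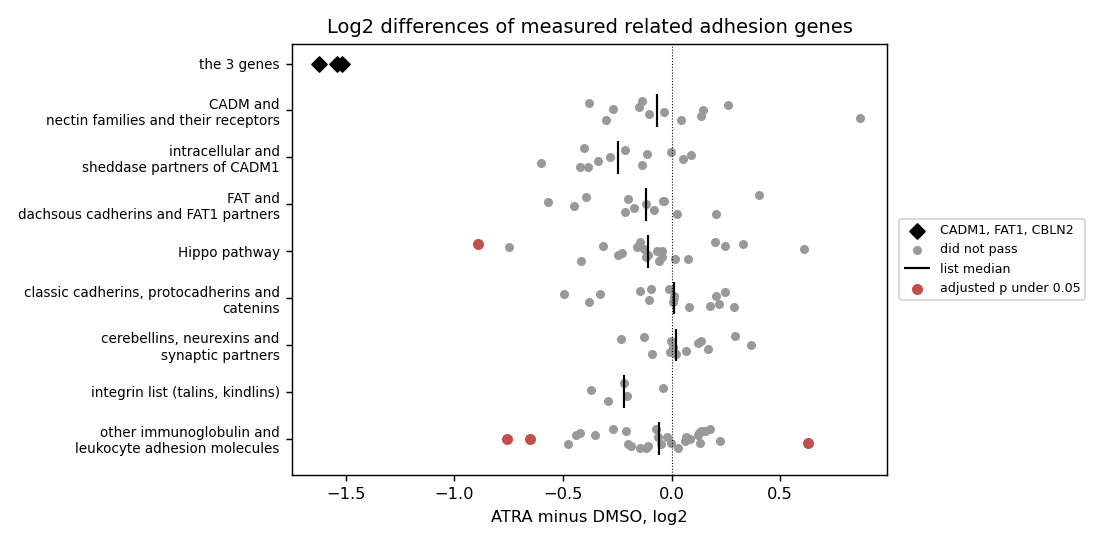
Log2 difference, ATRA minus DMSO, of each measured gene in 8 lists of related adhesion genes (1 row a list, short vertical lines at the list medians), with CADM1, FAT1 and CBLN2 in the top row. Red points passed an adjusted p of 0.05 in limma, 1 higher and 3 lower. The 3 genes lie between -1.62 and -1.52 (CADM1 by its brighter probe set), and the other genes between -0.89 and 0.87.

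The nearest measured protein-coding genes along the chromosome, 6 in all, gave 0 calls in limma, 1 unadjusted p under 0.05 and 0 calls with the trended, robust variance, beside 3.8%, 17.9% and 8.92% of all genes. Beside CADM1 on chromosome 11 these were RBM7 (log2 difference -0.27, adjusted p = 0.274 in limma) and BUD13 (-0.31, adjusted p = 0.448). Beside FAT1 on chromosome 4 they were MTNR1A (-0.23, adjusted p = 0.308) and ZFP42 (0.07, adjusted p = 0.802). Beside CBLN2 on chromosome 18 they were SOCS6 (0.06, adjusted p = 0.850) and NETO1 (-0.02, adjusted p = 0.970). ZFP42 and NETO1 had DMSO means of 5.85 and 6.56, below the median of all probe sets, and could hardly show a decrease. Between CADM1 and RBM7 lie 4 protein-coding genes that are not among the 14884 genes.

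The profiles over the 6 arrays were compared by the root mean square distance between log2 values centred on each gene's mean, as a description in which the group difference weighs most. CADM1 was represented by its brighter probe set. The protein-coding genes closest to CADM1 were the chemokine gene CCL3 (distance 0.15), the transcription factor gene KLF11 (0.15) and FAT1 (0.15). FAT1 was closest to CADM1 (0.15), followed by TEC (0.18) and TMSB15A (0.18), a thymosin. CBLN2 had no neighbour as close, the nearest being VIM, the gene of the intermediate filament vimentin (0.25), CCL5 (0.31) and CADM1 (0.32). Within groups, CADM1 and FAT1 both had their highest value in replicate 2, but in DMSO CADM1 was lowest in replicate 3 and FAT1 in replicate 1. CBLN2 had the highest value of each group in replicate 1 and the lowest in replicate 3.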

How the data were processed

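Total RNA from 6 samples of MM.1S was labelled with biotin by a whole-transcript kit and read on 1-colour arrays, per the labels' protocols. RMA and limma are named in the submitters' processing notes without a role or version, and no genome build is given in the sources used here. The authors deposited linear intensities for 53617 probe sets, used as they left them. Any compression of low values by their steps therefore remains in every fold.

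Intensities were turned to log2 with no pseudocount. The platform annotation named 16098 probe sets with 1 gene each. The other 37519 were not named with 1 single gene and were left out. A gene counts as measured here only if a probe set named it alone, so genes not measured may still be on the array. Differences over 14884 genes were tested by limma (version 3.58.1, R version 4.3.3) with lmFit and eBayes, two-sided and without a block, on 3 ATRA against 3 DMSO arrays. P-values were adjusted by Benjamini-Hochberg across all genes, and calls have an adjusted p under 0.05. The number of arrays limits the precision. Correlations between arrays over genes were 0.990 to 0.992 within groups and 0.985 to 0.987 between them. Folds are ratios of geometric means, and SDs are over 3 arrays.

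The 3 genes and all lists were chosen with earlier results of these data known. The rule for named genes took the partners of the 3 genes, up to 4 called genes of each list (or the 2 with the largest difference), the 3 closest profiles, and the neighbours in the genome and in the order of decreases. Gene types and gene order came from RefSeq's table for GRCh38.p14. On simulated data for this comparison with 14884 genes, 72% of 100 genes changed by 1 on the log2 scale and 99% of 100 changed by 2 were recovered, with 13 false calls among 184. The simulation used independent normal noise with each gene's own SD and changed 200 genes, fewer than were called in the data. Effects shared by the genes of an array were left out, so recovery in the data may differ. Alternatives were the replicate block, each array left out, a filter on dim genes, quantile normalization, a trended and robust variance, averaged probe sets and 16 added before log2.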

Additional observations from a re-analysis of the deposited data

How the results depend on the processing

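The difference was negative for CADM1, FAT1 and CBLN2 under all settings run. These were each array left out, quantile normalization, averaged probe sets and 16 added before log2. In every probe set of the 3 genes all ATRA arrays were below all DMSO arrays. Leaving out an array, averaging probe sets or adding 16 therefore could not have turned the sign. The sizes moved with 2 of the settings. Averaging the 2 probe sets of CADM1 gave -1.13, and adding 16 to each intensity, which shrinks every fold and most those of dim genes, gave -1.17 for CADM1, -1.24 for FAT1 and -0.85 for CBLN2. Of all genes, 257 were called higher and 308 lower. These became 494 and 833 with a trended, robust variance and 452 and 766 with 16 added. With 1 array left out they ranged from 112 to 152 and from 95 to 165. Of the listed adhesion genes, 1 was called higher and 3 lower. With the trended, robust variance these were 3 and 15, and with 16 added 1 and 12. Without the dimmest 25% of genes they were 1 and 5 of 92 listed genes, beside 304 and 394 of 11163 genes in all. With 1 array left out, 0 were higher and 1 to 2 lower. With the replicate number as a block, 113 and 87 of all genes were called, and 0 higher and 2 lower among the listed genes, ALCAM (adjusted p = 0.121) and ICAM1 (adjusted p = 0.116) losing their calls. The labels give same-numbered samples only a number and do not say if they share a batch. The deviations of same-numbered arrays correlated at 0.017, 0.0087 and 0.016, and each array correlated best with its own number. Correlations this weak, from 3 arrays a group, cannot settle if the arrays are paired. Arrays give no depth. CBLN2 and the dimmer CADM1 probe set had low signal with ATRA (mean log2 intensity 3.49 and 4.13). CBLN2 also spread more with DMSO (log2 SD 0.475) than with ATRA (0.209). How far low signal, spread or the number of arrays each limits the precision of these differences was not tested.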
